A study of Mus musculus with 576 samples.

Results

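A set of 10 genes of the transforming growth factor beta (Tgf-beta) family, all found among the 36658 gene identifiers of the count tables, were followed across single cells of the mouse embryonic dorsal pancreas. They were chosen by name, as the Tgf-beta ligands Tgfb1, Tgfb2 and Tgfb3, their receptors Tgfbr1, Tgfbr2 and Tgfbr3, the activin subunits Inhba and Inhbb, the related ligand Gdf11 and the activin-binding protein Fst. The cells had been sorted as GFP+ from dorsal pancreas at embryonic day 12.5 in 3 mouse lines. In the Nkx2.5-Cre;mTmG and Nkx3.2-Cre;mTmG lines, Cre switches on membrane GFP from the mTmG reporter, which marks cells that have expressed Cre together with their descendants. In the Prox1-GFP line, also named Prox1-EGFP, a transgene driven by Prox1 marks the cells directly. Each line gave 2 plates (A and B) of 96 wells, and no treatment was applied. Neither embryos nor litters are named in the labels. Each line therefore counts as 1 sample, its plates show the spread, and no test was possible. The library numbers of the Prox1 line form a run of their own, and an effect of that batch cannot be told apart from the line.

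Tgf-beta ligands are secreted in a latent form that must be activated outside the cell. The active dimer binds the type II receptor (Tgfbr2), which then phosphorylates the type I receptor (Tgfbr1), and the signal passes to the nucleus through Smad2 and Smad3, while the membrane proteoglycan Tgfbr3 (betaglycan) presents ligand, Tgfb2 above all. Activins, dimers of the Inhba and Inhbb products, and Gdf11 signal through other type II receptors to the same Smads and are bound by follistatin (Fst). In the developing pancreas these pathways are known for their part in the balance of endocrine, acinar and duct cell fates and in the exchange between epithelium and mesenchyme.

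Of 576 cells, 549 passed the filters, with median counts of 1056674, 896115 and 808006 for Nkx2.5, Nkx3.2 and Prox1 and 5839, 7329 and 7098 genes per cell. Cells were clustered with all genes of the pathway left out and named from markers. The Prox1 line held 86 epithelial-like and 19 endocrine-like cells beside 77 mesenchymal cells. The Nkx3.2 line held 22 mesothelial-like cells, with 92 and 76 mesenchymal cells on plates A and B, and the Nkx2.5 line 5 mesothelial-like cells, with 87 and 81. Each named class led in the summed level of its own markers, but not all were clean. The 27 mesothelial-like cells held the 10 mesenchymal markers at a summed 2793 CPM, and 13 of them held at least 50% of these markers at 10 CPM. Epcam stood at 850.2 CPM (counts scaled to the same library total) in epithelial-like cells, Gcg at 42543 CPM in endocrine-like cells and Upk3b at 539 CPM in mesothelial-like cells of the Nkx3.2 line, while the summed level of 10 mesenchymal markers was 172.8 CPM in epithelial-like cells and at least 4840 CPM in every mesenchymal cluster. The mesenchyme fell into 7 clusters: proliferating (75 cells), M-SpP-like (68), M-III-like (25), mural-like (43) and clusters 1 (81), 3 (74) and 5 (47), which carried no name. Of the 43 mural-like cells, 14 held at least 50% of the 9 mural markers at 10 CPM. Resting mesenchyme means all of these but the proliferating cluster. Another 4 cells carried markers of a class other than their own and were set aside, leaving 545.

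Levels are CPM of the counts summed over a class, and shares are the percent of cells with at least 1 count. Their exact 95% intervals (Poisson for levels, binomial for shares) cover counting error only, since PCR copies were counted. Where nothing was found, the limit given is that of 3 counts or 3 cells. The limit in counts covers counting error only, and a single further cell could exceed it. Stray counts set a limit on shares. Gcg, a hormone of alpha cells, had at least 1 count in 15.6% of the mesenchymal cells of the Prox1 line at a level of only 0.288 CPM. In endocrine-like cells of the same plates it stood at 42543 CPM, and mesenchyme of the other lines had no count of it. Gcg is thus a case of a very abundant gene. A share of that order at such a level is read only as possible background. Median depths in the Prox1 line were 796126 counts in mesenchymal and 781278 in endocrine-like cells. For this reason the share with at least 5 counts is given where levels are low.

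The members lie on 8 chromosomes (GENCODE M21, GRCm38). Tgfb2 occupies chr1:186622792-186705989 (minus strand) and Tgfbr2 chr9:116084293-116175360 (minus strand), and Gdf11 occupies chr10:128882295-128891718 (minus strand). Of the other ligands, Tgfb1 lies at chr7:25687002-25705077 (plus strand), Tgfb3 at chr12:86056745-86079041 (minus strand), Inhba at chr13:16011851-16031621 (plus strand) and Inhbb at chr1:119415465-119422248 (minus strand). Tgfbr1 lies at chr4:47353222-47414931 (plus strand), Tgfbr3 at chr5:107106570-107289629 (minus strand) and Fst at chr13:114452290-114458951 (minus strand). Values are sums over all annotated transcripts of a gene. RefSeq promoters of the same genome build (GRCm38.p6) matched 7 of the 10 members. The 250 bases before the start are shown for Tgfb2 and Tgfbr2, a ligand and a receptor that were both far lower in epithelium than in mesenchyme, and for Gdf11, which was higher in epithelium. Capitals mark, on either strand, TATAAA, the E-box CACGTG, the GC box GGGCGG, the Smad-type motif CAGACA and the cyclic AMP element TGACGTCA.
Tgfb2 (chr1:186705990-186706239, minus strand): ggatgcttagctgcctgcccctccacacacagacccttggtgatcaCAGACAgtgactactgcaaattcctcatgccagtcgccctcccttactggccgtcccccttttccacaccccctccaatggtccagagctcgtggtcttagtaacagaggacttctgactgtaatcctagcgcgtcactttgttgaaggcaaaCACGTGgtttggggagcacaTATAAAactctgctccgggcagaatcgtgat
Tgfbr2 (chr9:116175364-116175613, minus strand): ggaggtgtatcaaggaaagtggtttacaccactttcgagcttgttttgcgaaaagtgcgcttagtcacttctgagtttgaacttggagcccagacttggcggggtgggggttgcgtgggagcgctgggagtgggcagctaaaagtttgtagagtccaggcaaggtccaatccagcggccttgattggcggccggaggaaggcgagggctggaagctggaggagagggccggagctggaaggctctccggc
Gdf11 (chr10:128891719-128891968, minus strand): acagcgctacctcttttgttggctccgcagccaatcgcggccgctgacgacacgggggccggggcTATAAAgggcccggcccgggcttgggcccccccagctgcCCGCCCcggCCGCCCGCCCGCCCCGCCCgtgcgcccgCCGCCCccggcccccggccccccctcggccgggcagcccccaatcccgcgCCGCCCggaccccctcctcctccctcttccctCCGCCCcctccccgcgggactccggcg
The Tgfb2 window held TATAAA from 31 bases before the start, CACGTG from 51 bases before it and CAGACA from 204 bases before it. These motifs were in 12.4%, 6.02% and 17.1% of all 32851 promoter windows of that length. The Tgfbr2 window held none of the 5 motifs. The Gdf11 window held 8 matches to GGGCGG, some overlapping, a motif found in 32.7% of all windows, and TATAAA once. Its share of G and C was 81.2%, against 53.6% for Tgfb2, 58.4% for Tgfbr2 and a median of 52.4% over all windows. TGACGTCA (1.55% of all windows) was in none of the members' windows. A match is a run of letters and was not tested as a binding site.

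**Figure D1:**
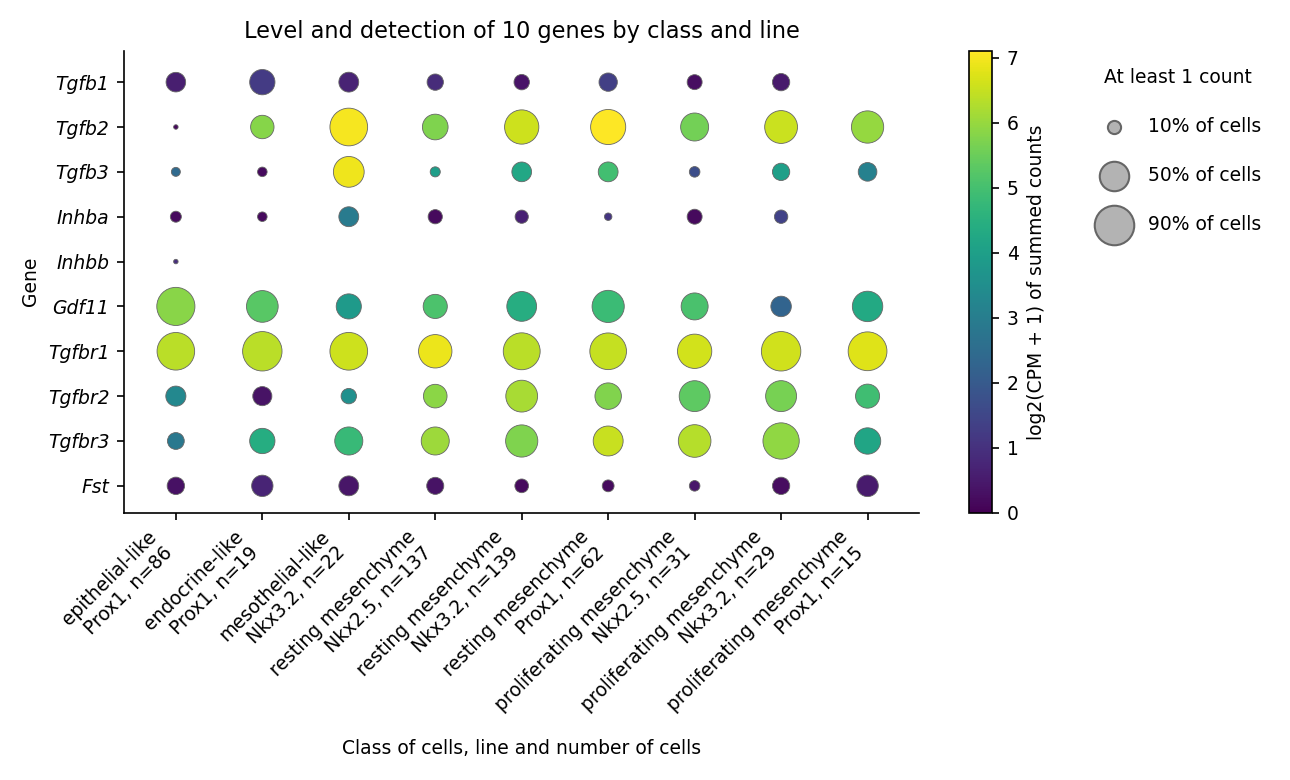
Level and detection of the 10 genes in 9 groups of class and line (columns, n = cells). Colour is log2(CPM + 1) of the summed counts and dot size the percent of cells with at least 1 count, and a gene without any count has no dot. Tgfb2 is bright in mesothelial-like cells and mesenchyme, Tgfb3 is brightest in mesothelial-like cells, Gdf11 is widest in epithelial-like cells, and Tgfbr1 is bright in all 9 groups.

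Tgfb2 was held by 55.9% of all 413 mesenchymal cells, the highest share among the 6 ligand genes there, and by 1 of 86 epithelial-like cells. In mesenchyme of the Prox1 line its level had an interval of 119.2 to 124.9 CPM (plates 134.4 and 113.6), where 68.8% (interval 57.3 to 78.9) of cells held it. In the 86 epithelial-like cells of the same line it stood at 0.110 CPM (interval 0.0475 to 0.217, plates 0 and 0.236), all of it from 1 cell. The 19 endocrine-like cells lay between, at 55.4 CPM (plates 44.04 and 63.9), and both of their plates were above both plates of epithelial-like cells and below both plates of mesenchyme. In the Nkx3.2 line the mesenchyme stood at 93.8 CPM (plates 93.02 and 95.01) and the mesothelial-like cells at 128.8 CPM, all of it from plate B. The 3 mesothelial-like cells of plate A had no count, and of the 19 on plate B 94.7% held Tgfb2. In the Nkx2.5 line the mesenchyme stood lower, at 51.01 CPM (plates 41.1 and 61.7). Ranked over the 9 groups of class and line, resting mesenchyme of the Prox1 line was highest at 136.8 CPM and epithelial-like cells lowest. Each neighbour in that order overlapped the next in the range of its plates until the last pair, where proliferating mesenchyme of the Nkx2.5 line (46.9 CPM) did not overlap the epithelial-like cells.

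Single cells were widely spread. In resting mesenchyme of the Nkx3.2 line the lowest cell held no Tgfb2, the median cell 66.02 CPM and the highest 687 CPM, and in the Nkx2.5 line the median cell held none and the highest 692 CPM. Within a class, Tgfb2 was thus detected at high levels in part of the cells and not detected in the rest. Whether a 0 was true absence or a missed transcript was not tested. Over all 545 cells, 258 held at least 1 count of Tgfb2 and 248 at least 5. Gdf11 (276 and 260) and Tgfbr3 (257 and 236) were alike in this.

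Tgfb3 was highest in the mesothelial-like cells. In the Nkx3.2 line these stood at 121.5 CPM (interval 116.6 to 126.7, plates 364 and 64.8), with 54.5% (interval 32.2 to 75.6) of 22 cells holding it, and the mesenchyme of the line at 17.2 CPM (interval 16.6 to 17.9, plates 11.9 and 25.6) with 21.4% (interval 15.5 to 28.4). Both plates of mesothelial-like cells were above both plates of mesenchyme. A single cell gave 47.6% of the mesothelial counts. Of the 22 cells, 9 held at least 5 counts of both Tgfb2 and Tgfb3, and 20 held at least 5 counts of one of the 3 Tgf-beta ligands. The 5 mesothelial-like cells of the Nkx2.5 line had no count of Tgfb3. By cells this allows a share of up to 60%, and by counts alone a level of up to 0.593 CPM. In the Prox1 line mesenchyme stood at 25.8 CPM (plates 25.3 and 26.05) and epithelial-like cells at 4.40 CPM (plates 5.41 and 3.24), with 4 of 86 cells holding it. In resting mesenchyme of the Nkx2.5 line the plates stood at 27.04 and 0.0155 CPM, 1 cell giving 49.9% of the counts. Tgfb3 shares part of its locus with Ttll5 on the opposite strand, and the libraries do not mark strand.

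Tgfb1, Inhba, Inhbb and Fst were low, and most of the cells that held them did so at a few counts. Tgfb1, the ligand best known from blood and immune cells, stood under 2 CPM in each of the 9 groups, from 0 in proliferating mesenchyme of the Prox1 line to 1.49 CPM in its resting mesenchyme, where 1 cell gave 64.2% of the counts. Of 92 cells with a count, 12 had at least 5. Inhba, the subunit of activin A, had at least 5 counts in 6 cells, and 3 of these were mesothelial-like cells of the Nkx3.2 line, which stood at 6.60 CPM (interval 5.46 to 7.86, plates 0.287 and 8.08). The mesenchyme of that line stood at 0.777 CPM (plates 1.2 and 0.119), so that the plates of both classes overlapped. Inhbb, the subunit of activin B, was found in 1 epithelial-like cell, with 66 counts, and in none of the 413 mesenchymal cells. By cells this allows a share with a count of up to 0.726%. By counts it allows up to 0.00788 CPM, a limit that 1 further cell with 66 counts would exceed. Fst, which binds and blocks activins, had a count in 80 cells, and in 56 of them that was a single count. Its level was between 0.132 CPM in resting mesenchyme of the Nkx3.2 line and 0.635 CPM in endocrine-like cells, and 1 cell reached 5 counts. At these levels no order among the groups was detectable for Fst.

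Gdf11, a ligand known to restrain endocrine progenitors in the embryonic pancreas, was higher in epithelium than in mesenchyme. Of the 9 groups it was highest in epithelial-like cells, at 55.9 CPM (interval 54.2 to 57.7, plates 57.8 and 53.7), and 83.7% (interval 74.2 to 90.8) of them held it. Endocrine-like cells stood at 37.4 CPM (plates 52.8 and 25.9) with 57.9% (interval 33.5 to 79.7). The mesenchyme of the same line stood at 26.1 CPM (plates 27.2 and 25.3) with 58.4% (interval 46.6 to 69.6), and both of its plates were below both plates of epithelial-like cells. Mesenchyme of the remaining lines stood at 32.99 CPM (plates 21.3 and 45.5) for Nkx2.5 and 17.5 CPM (plates 15.98 and 19.9) for Nkx3.2. The mesothelial-like cells of the Nkx3.2 line, at 13.5 CPM (plates 7.45 and 14.9), were below both plates of its mesenchyme. The 5 mesothelial-like cells of the Nkx2.5 line, too few to be among the 9 groups, stood above the epithelial-like cells, at 86.6 CPM (interval 78.7 to 95.1), with plates far apart at 48.4 and 133.6. In order of level over the 9 groups, epithelial-like cells came first and proliferating mesenchyme of the Nkx3.2 line last, without overlap of plates with their neighbours, the latter at 3.82 CPM (plates 3.58 and 4.25).

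**Figure D2:**
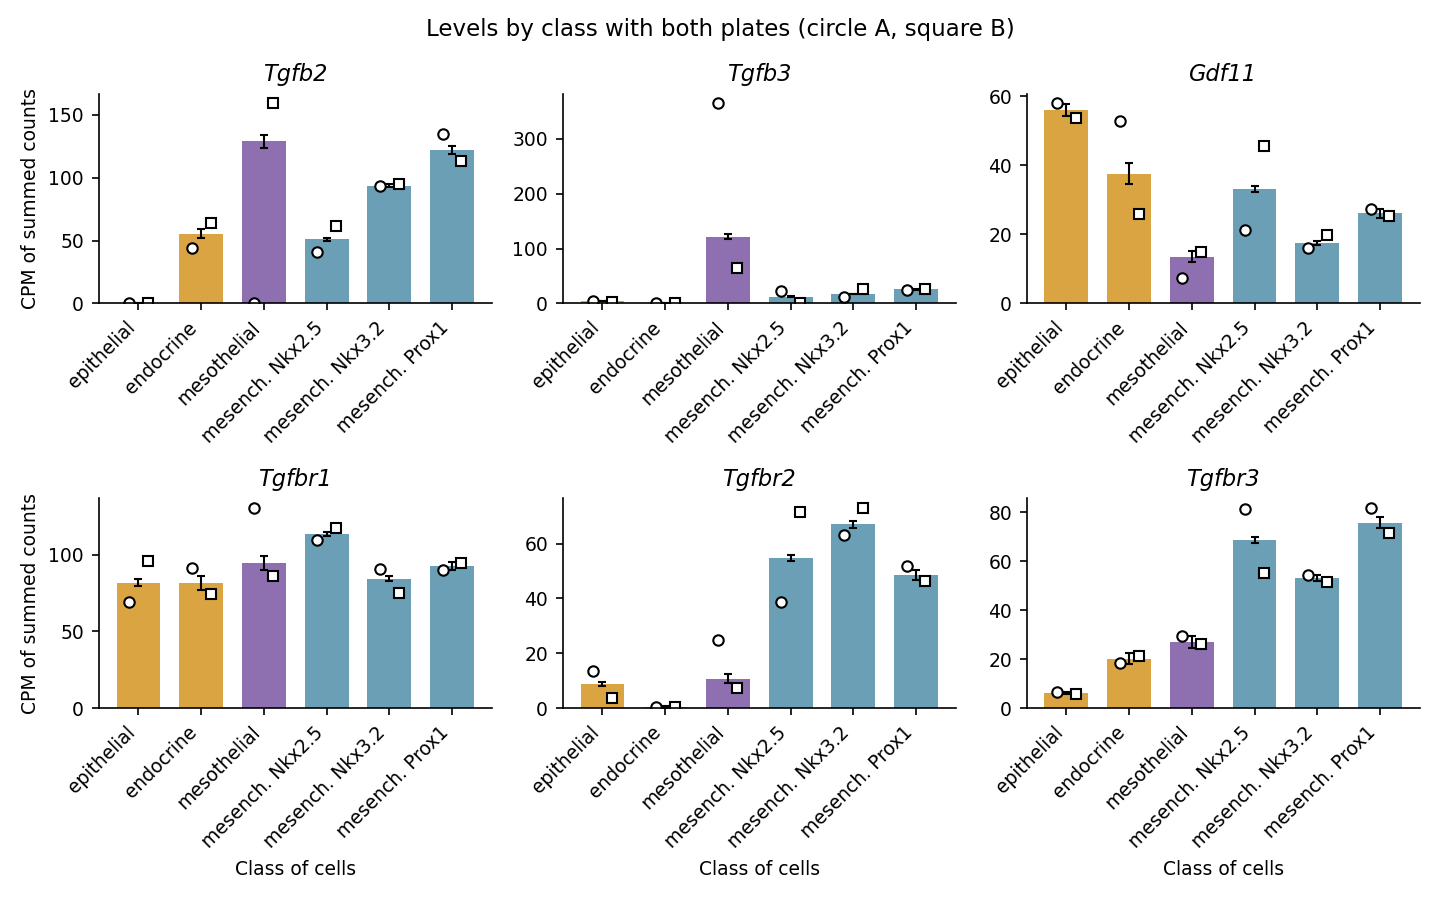
CPM of summed counts (y axis, from 0) by class for the 6 members with levels above background. Bars are a class of 1 line (epithelial and endocrine from the Prox1 line, mesothelial from the Nkx3.2 line), error bars exact 95% Poisson intervals, circles plate A and squares plate B, and the plates often lie outside the intervals, as for Tgfb3 in mesothelial-like cells (364 and 64.8 CPM) and Gdf11 in endocrine-like cells (52.8 and 25.9 CPM).

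The 3 receptors differed in how far mesenchyme exceeded the other classes. Tgfbr1, the type I receptor, was found in all 9 groups. Over the 9 groups it ranged from 81.7 CPM in endocrine-like cells to 117.2 CPM in resting mesenchyme of the Nkx2.5 line, every neighbour in that order overlapped the next in its plates, and between 64.2% and 89.7% of cells held it. Tgfbr2, the type II receptor, was higher in mesenchyme. It stood at 54.6 CPM (plates 38.8 and 71.6) in the Nkx2.5 line, 67.1 CPM (plates 63.3 and 72.9) in the Nkx3.2 line and 48.6 CPM (plates 51.7 and 46.5) in the Prox1 line. Epithelial-like cells stood at 8.88 CPM (interval 8.20 to 9.58, plates 13.5 and 3.57) and mesothelial-like cells of the Nkx3.2 line at 10.7 CPM (interval 9.27 to 12.3, plates 24.7 and 7.46). Endocrine-like cells stood at 0.268 CPM (interval 0.0692 to 0.650, plates 0.298 and 0.246), where 4 of 19 held a count and none held 5, which allows a share of up to 15.8% at 5 counts. The level and the share with a count were near those of stray Gcg. Gcg was far more abundant on these plates than Tgfbr2, and whether the Tgfbr2 counts were stray was not tested.

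Tgfbr3, which presents ligand to Tgfbr2, stood at 68.8 CPM (plates 81.4 and 55.2), 53.2 CPM (plates 54.2 and 51.5) and 75.7 CPM (plates 81.7 and 71.7) in mesenchyme of Nkx2.5, Nkx3.2 and Prox1, in that order. Epithelial-like cells were lowest, at 6.14 CPM (interval 5.58 to 6.73, plates 6.52 and 5.69), with 16.3% (interval 9.20 to 25.8) of cells. Endocrine-like cells stood higher, at 20.1 CPM (interval 17.96 to 22.5, plates 18.6 and 21.3), with 36.8% (interval 16.3 to 61.6). The mesothelial-like cells of the Nkx3.2 line stood at 26.9 CPM (plates 29.5 and 26.2), and neither plate reached the level of either plate of mesenchyme. A pseudogene, Gm8145, lies within the Tgfbr3 locus on the opposite strand.

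A cell needs both Tgfbr1 and Tgfbr2 to form the receptor complex. At least 5 counts of both were found in 27.4% of the 413 mesenchymal cells (interval 23.1 to 31.9), in 8 of 86 epithelial-like cells (9.30%, interval 4.10 to 17.5), in 3 of 27 mesothelial-like cells (11.1%, interval 2.35 to 29.2) and in 0 of 19 endocrine-like cells. These intervals count cells, and no test between classes was possible. In the Prox1 line, which held the epithelial-like cells, the mesenchyme stood at 27.3% (interval 17.7 to 38.6) with 5 counts of both. With at least 1 count of both, mesenchyme and epithelial-like cells of that line lay closer together, at 28.6% (interval 18.8 to 40.0035) and 19.8% (interval 11.96 to 29.8). By line the share in mesenchyme was 17.9% in Nkx2.5, 36.9% in Nkx3.2 and 27.3% in Prox1. At least 5 counts of Tgfbr2 alone were found in 29.8%, 48.2% and 37.7%, in that order. The shares with both were not set against those expected from each receptor alone. In resting mesenchyme 90.6% of all genes tested had a lower share of cells with a count in Nkx2.5 than in Nkx3.2. The lower share in Nkx2.5 is therefore not read as a result about the receptors. Both receptors together with at least 5 counts of a Tgf-beta ligand were found in 68 of the 413 mesenchymal cells.

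Levels of different genes were compared per kilobase of exon. In epithelial-like cells Gdf11 (13.8 CPM per kb) and Tgfbr1 (12.5) stood an order of magnitude above Tgfb3 (1.30), Tgfbr2 (1.08) and Tgfbr3 (0.937). In mesenchyme of the Prox1 line Tgfb2 came first, at 21.1 CPM per kb, ahead of Tgfbr1 (14.2), Tgfbr3 (11.6), Tgfb3 (7.61), Gdf11 (6.42) and Tgfbr2 (5.93). In mesothelial-like cells of the Nkx3.2 line Tgfb3 (35.9) and Tgfb2 (22.2) were above Tgfbr1 (14.5), and Tgfbr2 stood at 1.31 CPM per kb. The lengths are unions of all annotated exons, so that these are rough.

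To compare classes across all genes, a gene was called where the ratio of summed CPM was at least 2 or at most 0.5, it reached 5 CPM on one side and every plate (or every pair of plates between lines) had the same direction. Ratios are given on the log2 scale, where 1 is a doubling. Between the 86 epithelial-like and 19 endocrine-like cells of the Prox1 line together and its 77 mesenchymal cells, 12353 genes reached 5 CPM, of which 17.7% were called higher and 13.02% lower in epithelium. Of the 10 members 6 reached it, and 1 was called higher and 4 lower. Tgfb2 was lower, at a ratio of -3.61 (plates -4.37 and -3.06), Tgfbr3 at -3.13 (plates -3.30 and -3.00), Tgfb3 at -2.82 (plates -2.46 and -3.32) and Tgfbr2 at -2.73 (plates -2.16 and -4.02). Without the endocrine-like cells, an alternative added after the data were seen, the same 4 were called and the ratio of Tgfb2 was -10.11. Gdf11 was higher by 1.01 (plates 1.07 and 0.92), just past the 2-fold limit, and fell under it when only the B plates or the mean of single cells was used. Tgfbr1 was not called, with a ratio of -0.18 and plates at -0.31 and -0.05. The other 4 members stayed under 5 CPM on both sides. The median ratio of the 6 was -2.77, against 0.02 over all genes tested.

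Between the 22 mesothelial-like cells and the mesenchyme of the Nkx3.2 line, 9.39% of 11912 genes were called higher and 13.03% lower in mesothelial-like cells. Of 7 members that reached 5 CPM, Tgfb3 was called higher, at 2.82 (plates 4.94 and 1.34), and Tgfbr2 lower, at -2.65 (plates -1.36 and -3.29). Tgfbr3, at -0.99 (plates -0.88 and -0.97), lay at the limit and was called under 4 of the alternatives. Inhba had a ratio of 3.09 but was not called, since plates A and B pointed opposite ways. Tgfb2 (0.46), Tgfbr1 (0.16) and Gdf11 (-0.38) were not called. Plate A gave only 3 of the 22 cells, and for Tgfb3 these raised the ratio. With a class given to each cell from its own markers in place of clusters, the ratio of Tgfb3 was 1.39. The median ratio of the 7 was 0.16, against 0.01 over all genes tested.

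Within the epithelium of the Prox1 line, 18.7% of 12399 genes were called higher and 23.9% lower in the 19 endocrine-like cells than in the 86 others, so that calls were common here. Of 5 members that reached 5 CPM, Tgfb2 was called higher, at 8.98 (plates 9.15 and 8.08, plate A against a limit of 3 counts since its 49 other epithelial cells had none), as was Tgfbr3, at 1.71 (plates 1.51 and 1.9). Tgfbr2 was called lower, at -5.05 (plates -4.92 and -3.43). Its endocrine side was under 3 counts on each plate and was set to 3 in both plate ratios. On plate B alone neither side reached 5 CPM and Tgfbr2 was not called. Gdf11 (-0.58) and Tgfbr1 (0.00) were not called. The median ratio of the 5 was -0.00, against -0.09 over all genes tested.

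Tgfb2 was held by 6 of the 19 endocrine-like cells, 2 on plate A and 4 on plate B, at 36.6, 56.9, 108.8, 209.7, 231 and 342 CPM, and the other 13 had no count. All 6 also held Gcg, the glucagon gene that marks alpha cells, at between 11670 and 141047 CPM. Gcg split the endocrine-like cells into 14 cells at 7536 CPM or more and 5 with none, and 6 of the 14 but 0 of the 5 held Tgfb2. With so few cells a lower share without Gcg was not detectable. The split by Gcg was chosen after the values had been seen.

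**Figure D3:**
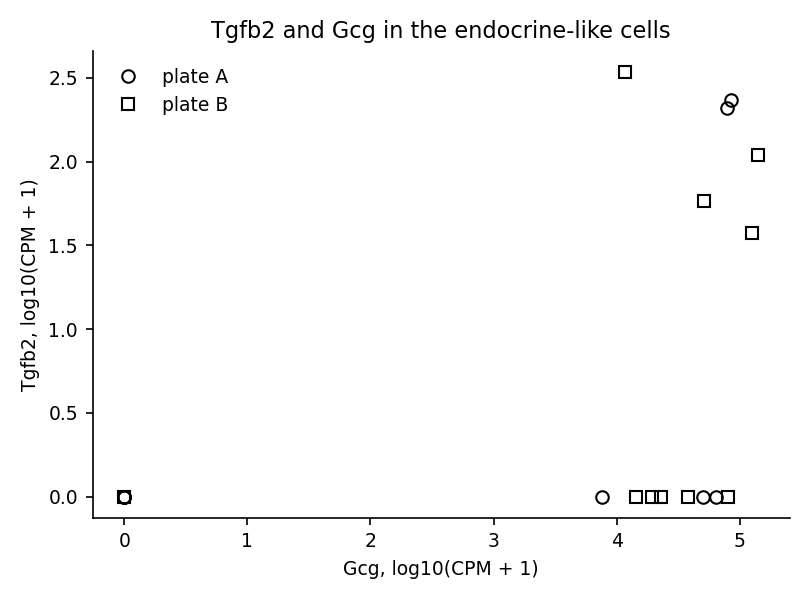
Tgfb2 against Gcg in the 19 endocrine-like cells of the Prox1 line, both as log10(CPM + 1), with circles for plate A and squares for plate B. The 6 cells with Tgfb2 lie at the upper right, 8 cells with Gcg alone lie along the x axis and 5 cells with neither overlap at the origin.

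The proliferating mesenchyme was set against resting mesenchyme within each line and the 3 log2 ratios were averaged. Of 12313 genes, 2.73% were called higher and 2.22% lower in all 6 plates. None of the 6 members that reached 5 CPM was called, and their median was -0.65, against -0.15 over all genes tested. The level of Tgfbr2 pointed one way, at -0.64, with proliferating cells lower on all 6 plates. The share of cells holding it did not. It was 54.8% of proliferating against 32.1% of resting cells in Nkx2.5, 55.2% against 58.3% in Nkx3.2 and 33.3% against 40.3% in Prox1. The ratios of the 3 lines lay farthest apart for Tgfbr3, Tgfb3 and Gdf11. Tgfbr3 stood at 16.9 CPM (plates 5.15 and 24.1) in proliferating and 90.5 CPM (plates 99.4 and 84.2) in resting mesenchyme of the Prox1 line, but at 78.9 and 66.5 CPM in the Nkx2.5 line and 59.5 and 51.7 CPM in the Nkx3.2 line. Gdf11 stood at 3.82 CPM (plates 3.58 and 4.25) in proliferating and 20.6 CPM (plates 19.05 and 23.05) in resting mesenchyme of the Nkx3.2 line, while the other lines had log2 ratios of -0.02 (Nkx2.5) and -0.58 (Prox1). With a class given to each cell from its own markers, the mean ratio of Gdf11 moved from -1.01 to 0.0064. For Tgfb3 the ratios were -2.71 (Nkx2.5), -0.27 (Nkx3.2) and -2.01 (Prox1), and the plates of the Nkx2.5 line pointed opposite ways. These differences between lines were not tested. The proliferating cluster held 31 cells of Nkx2.5, 29 of Nkx3.2 and 15 of Prox1, while cell cycle scores had been regressed before clustering and cycling cells remained in other clusters. The summed level of 14 proliferation markers was 4474 CPM in the proliferating cluster and up to 1454 CPM in the resting ones.

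**Figure D4:**
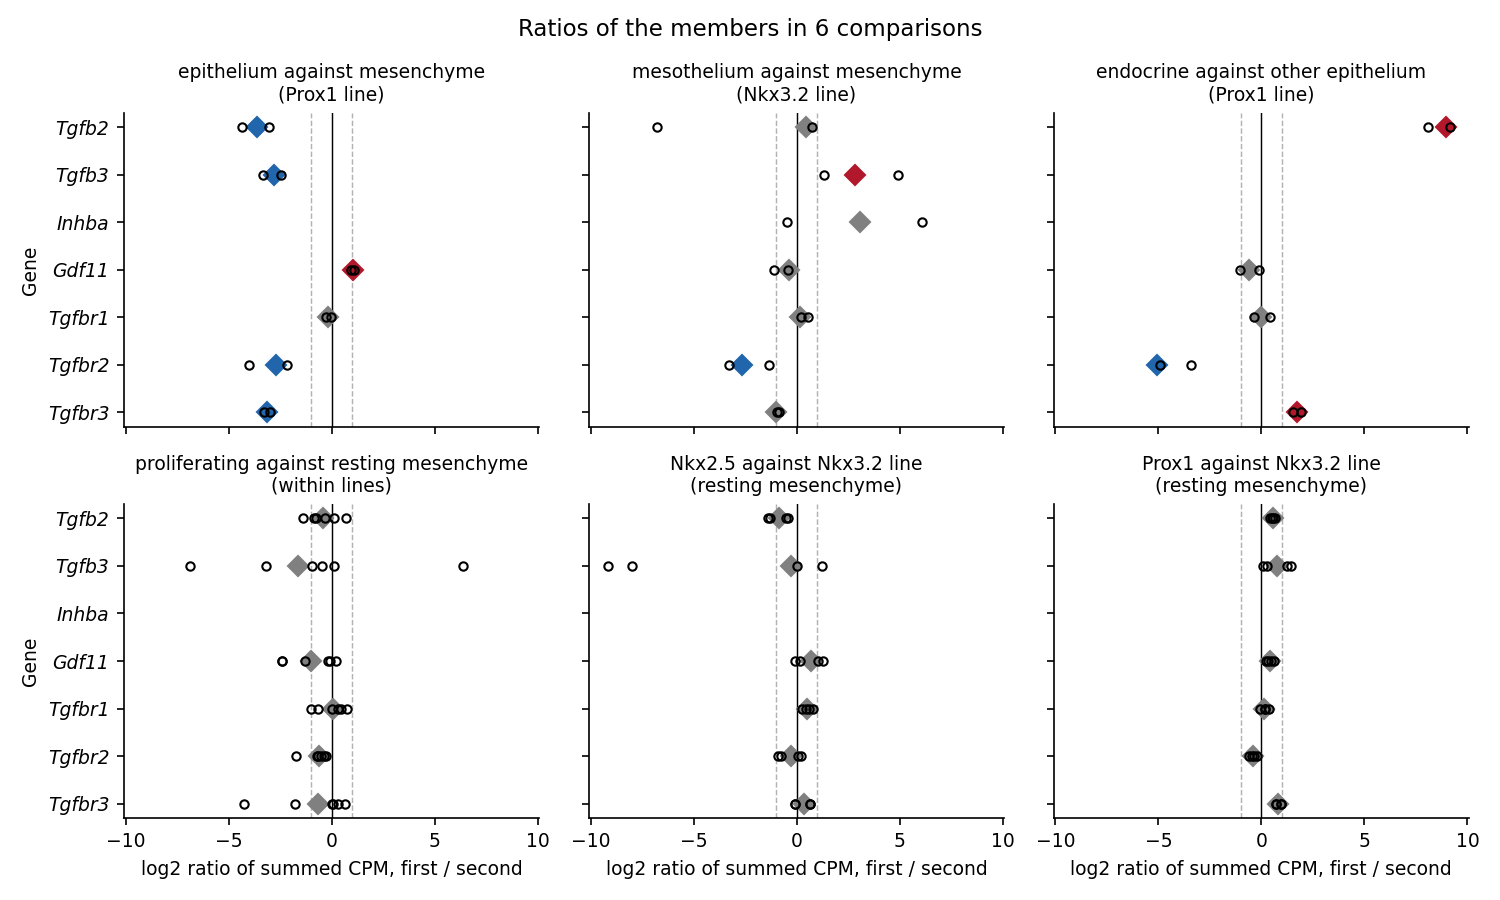
Log2 ratio of summed CPM (x axis) of the members that reached 5 CPM in each of 6 comparisons. Diamonds are the ratios, red where called higher, blue where called lower and grey where not called, open circles are single plates or pairs of plates, and dashed lines mark 2-fold. Members under 5 CPM on both sides are not drawn. A side with fewer than 3 counts was set to 3, which places circles such as the outermost Tgfb3 and Tgfb2 ones and those of Tgfbr2 in endocrine-like cells.

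Between lines, resting mesenchyme of the Nkx2.5 line (74 cells on plate A and 63 on plate B) was set against that of the Nkx3.2 line (75 and 64). Of 11385 genes, 5.09% were called higher and 6.93% lower in Nkx2.5. For the 62 cells of the Prox1 line against the same Nkx3.2 cells these shares were 5.28% and 6.27% of 11463 genes. None of the 6 members that reached 5 CPM was called in either comparison. Their median was 0.04 for Nkx2.5 and 0.49 for Prox1, against 0.02 and 0.02 over all genes tested. Both comparisons use the same Nkx3.2 cells. The ratios for Nkx2.5 and for Prox1 were -0.86 and 0.54 for Tgfb2, -0.30 and -0.42 for Tgfbr2, 0.36 and 0.81 for Tgfbr3 and 0.68 and 0.44 for Gdf11. Tgfb2 pointed the same way in all 4 pairs of plates of each comparison, lower in Nkx2.5 and higher in Prox1. The share of all genes with such agreement was not computed, and other members showed it too. Tgfbr1 was higher in all 4 pairs for Nkx2.5, and for Prox1 Tgfb3, Tgfbr3 and Gdf11 were higher and Tgfbr2 lower in all 4.

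The share of cells that held a member was lower in the Nkx2.5 line, as it was for most genes. Tgfb2 was held by 37.96% (interval 29.8 to 46.6) of resting mesenchymal cells in the Nkx2.5 line, 67.6% (interval 59.2 to 75.3) in the Nkx3.2 line and 70.97% (interval 58.1 to 81.8) in the Prox1 line. With every cell thinned to 100000 counts these were 34.3%, 64.03% and 69.4%. Tgfbr2 was held by 32.1% of these cells for Nkx2.5 and 58.3% for Nkx3.2, Tgfbr3 by 45.3% and 59.7%, Gdf11 by 33.6% and 51.1%, Tgfbr1 by 64.2% and 78.4% and Tgfb3 by 5.84% and 22.3%. All 6 shares were lower for Nkx2.5 in every pair of plates, but so were 73.2% of the 11385 genes tested, and 90.6% were lower over both plates together. Within the cells that held a gene the median level was higher in the Nkx2.5 line for all 6, as for 69.6% of all genes, with medians such as 70.7 against 26.9 CPM for Gdf11, 116.3 against 68.8 CPM for Tgfbr3, 116.1 against 76.7 CPM for Tgfbr1 and 121.4 against 105.2 CPM for Tgfb2. Against that background the lower shares are no result about the members. The same Nkx2.5 cells had a median of 5683 genes against 7208 in the Nkx3.2 line, at a median of 1057404 against 890120 counts.

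The lines were spread unevenly over the mesenchymal clusters, so clusters were compared within a line, where it had at least 5 cells. In the Nkx3.2 line Tgfb2 was highest in M-III-like cells, at 188.01 CPM (plates 171.8 and 200.1, 6 cells), and in mural-like cells, named from markers that include the smooth muscle genes Acta2 and Tagln, at 122.2 CPM (plates 115.9 and 130.1, 35 cells). It was lowest there in M-SpP-like cells, named from markers that include Nkx2-5 and Tlx1, at 66.96 CPM (plates 72.5 and 61.5, 44 cells). The order was another one in the remaining lines. In the Prox1 line cluster 5 came first, at 242.4 CPM (plates 126.6 and 317, 10 cells), ahead of mural-like cells at 171.6 CPM (6 cells, plate B only) and M-III-like cells at 131.3 CPM (plates 199.4 and 29.7, 18 cells). In the Nkx2.5 line cluster 3 came first, at 73.8 CPM (plates 77.03 and 70.3, 61 cells), and M-SpP-like cells last, at 1.43 CPM.

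The M-SpP-like cells of the Nkx2.5 line held Tgfb2 in 4 of 23 cells, and those of the Nkx3.2 line in 27 of 44. Of the 23 cells, 21 were on plate A. On that plate cluster 1 of the line was also low (8.05 CPM, against 69.1 on plate B), but cluster 3 was not, and proliferating cells were higher than on plate B (60.6 against 36.96 CPM). The contrast was noticed after the values had been seen, and it compares 1 sample with 1.

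Tgfbr2 stood at 16.9 CPM in M-SpP-like cells of the Nkx2.5 line, the lowest of its clusters, and at 50.5 CPM (plates 73.9 and 27.5) in those of the Nkx3.2 line. Mural-like cells of the Nkx3.2 line stood at 87.5 CPM (plates 77.8 and 99.6), while the 6 of the Prox1 line had no count. For Tgfbr3 the lines also differed. Cluster 3 was the highest in the Nkx2.5 line, at 81.1 CPM (plates 106.5 and 52.8), and in the Prox1 line, at 168.6 CPM over 6 cells (plates 204.6 and 9.29, the latter 1 cell), but the lowest in the Nkx3.2 line, at 9.38 CPM over 7 cells. In cluster 3 of the Prox1 line 3 of the 6 cells held Tgfbr3, and 1 cell gave 69.96% of the counts. Both receptors together, at 5 counts each, were found in 45.7% of mural-like and 25% of M-SpP-like cells of the Nkx3.2 line.

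**Figure D5:**
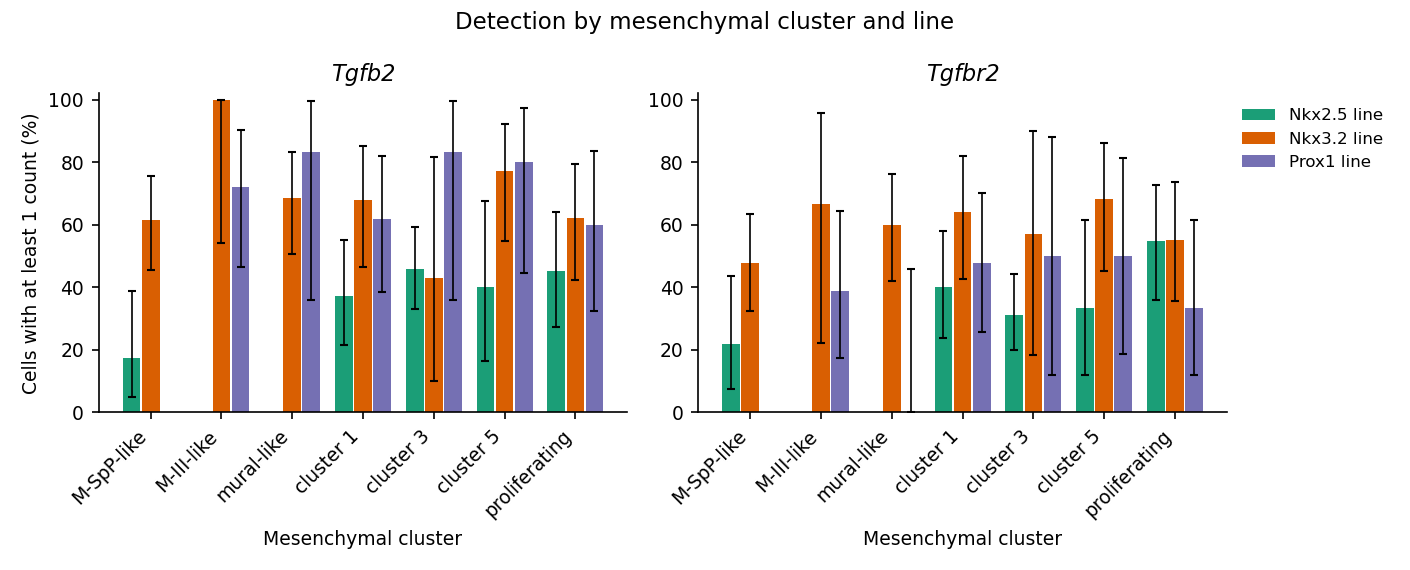
Percent of cells with at least 1 count of Tgfb2 (left) and Tgfbr2 (right) by mesenchymal cluster, with 1 bar per line where it had at least 5 cells in the cluster and exact 95% binomial intervals. M-SpP-like cells of the Nkx2.5 line stand at 17.4% for Tgfb2, below the 61.4% of the Nkx3.2 line. Of these 23 cells of the Nkx2.5 line, 21 were on plate A. The contrast was noticed after the values had been seen, and in resting mesenchyme of that line shares were lower for most genes.

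A list of 45 other genes of the pathway gave the surroundings of the members. In epithelium against mesenchyme of the Prox1 line, 28 reached 5 CPM, and 5 were called higher and 11 lower. Over all genes tested these shares were 17.7% and 13.02%. The highest ratios were those of Itgb6 (5.59), a subunit of the integrin that frees latent Tgf-beta, Acvr1b (3.44), the type I activin receptor, and Fstl3 (3.37), a relative of follistatin. The lowest were those of Tgfbi, a matrix protein induced by Tgf-beta (0.207 against 559 CPM, -11.40), the co-receptor Eng (0.0226 against 51.8 CPM) and Tgfb1i1 (0.0113 against 51.7 CPM). In mesothelial-like cells 30 reached 5 CPM, and 1 was called higher and 11 lower, against 9.39% and 13.03% of all genes tested. Inha, the inhibin alpha subunit, was the one called higher (2.5), and the lowest were Eng (0.109 against 91.98 CPM), Pmepa1, a feedback inhibitor of the pathway (-5.0), and Tgfb1i1 (-4.21). The activin receptors Acvr2a and Acvr2b stood at 60.7 and 44.5 CPM in epithelial-like cells and 52.97 and 19.9 CPM in mesenchyme of all lines. Smad2 stood at 61.8 and 78.7 CPM and Smad3 at 72.2 and 71.6 CPM in the same 2 groups. The activin receptors and Smads were named here after their values had been seen.

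In endocrine-like against other epithelial cells 24 reached 5 CPM, and 3 were called higher and 7 lower. Over all genes tested 18.7% were called higher and 23.9% lower, so that such counts are no result about the list. Ltbp2, a matrix protein of the family that holds latent Tgf-beta, had the highest ratio (6.86), ahead of Ltbp3 (1.64) and Emilin1 (1.33). Tgif1, a Smad corepressor, had no count in the 19 endocrine-like cells and 111.2 CPM in the others. With the endocrine side set to 3 counts, Tgif1 was 584-fold lower and Ccn2, a growth factor induced by Tgf-beta, 81.4-fold lower. These folds cover counting error only and are no lower bounds over cells. Of the 86 others, 82.6% held Tgif1 and 23.3% held Ccn2, while 0 of 19 cells allows a share of up to 15.8%. Itgb6 followed at -2.95. In proliferating against resting mesenchyme, 31 reached 5 CPM, and Nrros, which binds latent Tgf-beta, was the only gene called, lower at -2.37. Over all genes tested 2.73% were called higher and 2.22% lower. In resting mesenchyme of the Nkx2.5 line, 29 reached 5 CPM, and none was called higher and 5 lower than in the Nkx3.2 line. Over all genes tested these shares were 5.09% and 6.93%. The 5 were led by Fstl3 (-3.04), Nrros (-2.76) and Zfyve9 (-1.52), an anchor of Smads. For resting mesenchyme of the Prox1 line, none of 29 was called higher and 7 lower, against 5.28% and 6.27% of all genes tested. The 7 were led by Lrrc32 (-2.75), which holds latent Tgf-beta at the cell surface, Ccn2 (-2.08) and the inhibitory Smad7 (-1.19).

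Genes with a pattern like that of a member were sought over 33 groups of class, line and plate with at least 5 cells, by the correlation of log2(CPM + 1) among genes with at least 20 CPM in one group. These groups share cells of the same plates and lines and differ in depth, and the values are a description. Nearest to Tgfb2 were Flnc (r = 0.76), Tbx2 (r = 0.73) and Zeb1 (r = 0.71), and to Tgfb3 Ttll12 (r = 0.69), Slc2a1 (r = 0.69) and Mgat1 (r = 0.65). Nearest to Tgfbr2 were Col23a1 (r = 0.84), Nbl1 (r = 0.84) and Itga5 (r = 0.84), to Tgfbr3 Mpp1 (r = 0.76), Hsd11b2 (r = 0.72) and Heg1 (r = 0.72) and to Tgfbr1 Akap8 (r = 0.64), Crebbp (r = 0.58) and Nbas (r = 0.57). Nearest to Gdf11 were Zbtb38 (r = 0.70), Timm17a (r = 0.69) and Sucla2 (r = 0.68). Inhba, which passed 5 CPM in 1 plate group of mesothelial-like cells, was nearest to Gria4 (r = 0.80), Bnc1 (r = 0.77) and Klk14 (r = 0.67), the second of which is a mesothelial transcription factor. Tgfb1, Inhbb and Fst reached 5 CPM in none of the groups and were not compared.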

How the data were processed

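The study sorted GFP+ cells of E12.5 dorsal pancreas into 96-well plates, 1 Smart-seq2 library per well, from 3 mouse lines grouped by the genotype label. The authors deposited 1 table of estimated counts per line, made per the labels and methods with Trim Galore 0.6.5 and kallisto and summed from transcripts to genes on GRCm38 (mm10), and 35.97% of values above 0 were not whole. The annotation release was not given in the sources used here. PCR copies were not collapsed, and the kit does not mark strand.

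Cells were kept from 1000 genes and 100000 counts upwards if mitochondrial counts were 30% or less, and were clustered in Seurat 5.3.0 (2000 variable genes without the 55 pathway genes, 20 principal components, resolution 1.9, cell cycle difference regressed) and named from markers. Thresholds for naming clusters and setting cells aside were chosen once the clusters were known, and doublets were not called. The 10 genes and the list of 45 others were chosen with earlier results of these data known. Counts were summed per class and line, rounded for Poisson intervals and scaled to CPM (Python 3.11.15, scipy 1.17.1). A side under 3 counts was set to 3 in ratios. The ratio and calling steps were tested on simulated data. All 10 members are named, and of the 45 others at most the 3 with the largest ratio per direction and comparison. Acvr2a, Acvr2b, Smad2 and Smad3 are named besides these, after their values had been seen. Alternatives used edgeR 4.0.16 and DESeq2 1.42.0 for size factors only.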

Additional observations from a re-analysis of the deposited data

Results flagged for a closer look

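The change of Tgfbr3 between proliferating and resting mesenchyme ran in opposite directions between lines. It was lower in proliferating cells on both plates of the Prox1 line (log2 ratios -4.27 and -1.81) and higher on both plates of Nkx2.5 (0.01 and 0.65) and of Nkx3.2 (0.28 and 0.05). Prox1 minus Nkx2.5 was -2.66393 and Prox1 minus Nkx3.2 was -2.61977 on the log2 scale. These were 2 of 18 pairs of lines compared over 6 members, and the difference was not tested. The Prox1 side rests on 15 proliferating cells, and 1 of the 4 plates on the other side (0.01) was close to no change.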

How the results depend on the processing

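No paired analysis was possible because the labels number plates and wells, not embryos, and no test was run. Over all alternatives 21 counts of called members, 27 log2 ratios and 67 shares of cells moved, and none of the log2 ratios of a called member reversed. In mesothelial-like cells the members called higher were 2 with a class given to each cell (Inhba added) and 2 with no minimum CPM (Fst added), and those called lower were 2 with TMM, with median-of-ratios factors, with the mean of single cells and without the highest cell (Tgfbr3 added). In epithelium the members called higher were 0 with the mean of single cells. In proliferating mesenchyme those called lower were 1, Gdf11, with the mean of single cells and without the highest cell, but with a class given to each cell its ratio was 0.0064, against -1.01. With a class given to each cell the ratio of Tgfb3 in mesothelial-like cells was 1.39, against 2.82. With no minimum CPM, 2 were called lower in endocrine-like cells (Tgfb3 added) and 2 higher in Nkx2.5 (Tgfb1 and Fst). On plates A or B alone, the members called ranged from 0 to 1 higher in epithelium, 1 to 2 higher and 1 to 3 lower in mesothelial-like cells, 1 to 2 lower in endocrine-like cells, 0 to 1 lower in proliferating mesenchyme, 1 to 1 higher and 1 to 1 lower in Nkx2.5 and 0 to 1 higher in Prox1. Tgfb3 in Nkx2.5 changed direction between the plates. The causes were not tested. With the stricter cell filter or at resolution 1.0 no endocrine-like cluster was named and that comparison has no value.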
